A study of Drosophila melanogaster with 4 samples.

Results

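The Antennapedia complex is the chain of Hox and Hox-derived genes on arm 3R of Drosophila melanogaster that holds lab, pb, zen, bcd, Dfd, Scr, ftz and Antp. The complex was taken as every cluster (called region of Psc enrichment) that overlapped the 420-kb window from base 2460000 to 2880000 of 3R in FlyBase release 5. This gave 59 of 2628 clusters in the replicate 1 list, 61 of 2432 in the replicate 2 list and 80 of 8687 in the combined list. Each cluster lay wholly inside the window. The lists come from chromatin immunoprecipitation and sequencing (ChIP-seq) with an antibody against Psc on wild-type embryos of the Oregon-R strain, 14 to 16 h old. The 2 ChIP samples each had an input sample of the same number as reference. The combined list is 1 further list for the replicate set. Whole embryos mix segments and tissues in which a given Hox gene is active with others in which it is silent, so each list is an average over these. The labels do not tell whether separate embryo collections were used, so the spread between the replicates may be technical.

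Psc is a subunit of Polycomb repressive complex 1, which compacts chromatin and marks histone H2A, and it works with Polycomb repressive complex 2, which methylates histone H3. In flies these complexes keep Hox genes silent in the segments where the genes had not been switched on earlier in development. They are recruited at DNA elements called Polycomb response elements and spread from there over long domains. The Hox complexes were the genes through which Polycomb group proteins were discovered.

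The genes of the complex do different work. In the release 6 gene table of RefSeq all 8 named genes were found on 3R, in the order lab, pb, zen, bcd, Dfd, Scr, ftz and Antp with rising coordinate. The Hox gene lab patterns the intercalary segment of the head, pb the adult mouthparts, Dfd the mandibular and maxillary segments, Scr the labial and prothoracic segments, and Antp the thorax. The other 3 lost the Hox role in insect evolution: zen specifies the extraembryonic amnioserosa, bcd encodes the maternal anterior morphogen and ftz is a pair-rule segmentation gene. Another 35 genes lay between lab and Antp, of which 11 were protein-coding, 16 were long noncoding RNAs, 4 were tRNAs, 2 were signal recognition particle RNAs and 2 were microRNAs, mir-993 between bcd and Dfd and mir-10 between Dfd and Scr. The 11 included the homeobox gene zen2, between pb and zen, and 7 cuticle protein genes of the Ccp84A group, between lab and pb.

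The gene table and the cluster lists are of different releases, so no cluster was assigned to any of the 8 genes, and regions are given by their release 5 position alone. The identity of the window as the Antennapedia complex is therefore taken as given, without a check against gene positions. The value of each cluster is the authors' enrichment score, whose unit the lists do not name. It was used here to describe and rank clusters within a list, with no conversion to a fold. Read numbers were not used here and the depth behind a score is unknown.

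Psc clusters filled a large part of the complex in each replicate list. They covered 48.6% of the window (204 kb) in replicate 1 and 43.3% (182 kb) in replicate 2, a mean of 46.0% ± 3.8 (SD, n = 2). The combined list covered 76.9% (323 kb). Over the major arms the same lists covered 5.40%, 4.78% and 14.1%, so the complex was more densely covered in each list than the arms as a whole, by far more than the replicates differed. Clusters were also packed closely, with 140 and 145 per Mb in replicates 1 and 2 against 21.6 and 20.0 per Mb over the major arms, and 190 against 71.2 per Mb in the combined list.

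Few stretches of the genome of this size were as full. Among 280 windows of the same size laid over the major arms, the complex had rank 2 by coverage in both replicate lists and rank 1 in the combined list, and by number of clusters it had rank 1 in all 3 lists. The median window was covered to 3.32%, 2.82% and 11.7% in replicate 1, replicate 2 and the combined list. The window ahead of it in the replicates, at 53.8% and 48.1%, held 83.2% of a 334-kb domain further along 3R. The windows were laid from the edge of the complex, which thus lay whole in a window. The 334-kb domain was cut, with 16.8% of it in the window before. Over its own length that domain held 47, 45 and 27 clusters, and the combined list covered 93.4% of it. The ranks of the complex thus depend on how windows are laid. The window next below the complex in rank reached 32.0% and 30.8% in the replicates. These ranks describe the lists and carry no test.

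**Figure D1:**
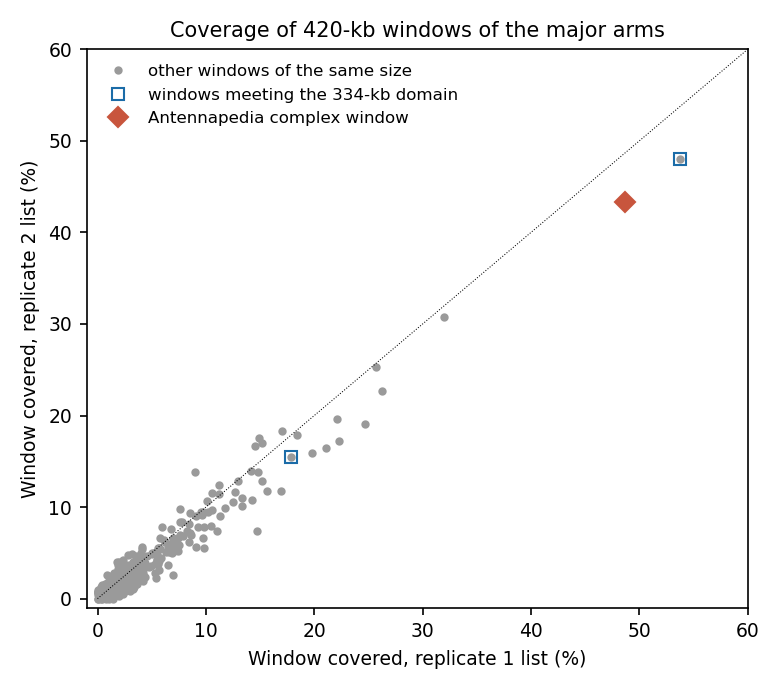
Coverage of 280 windows of 420 kb on the major arms, as percent of the window in the replicate 1 list (x axis) and the replicate 2 list (y axis), each point a window and the dotted line marking equal coverage. The Antennapedia complex window (diamond) stood at 48.6% and 43.3%, next to the window at 53.8% and 48.1% that holds most of the 334-kb domain (square), while the median window was at 3.32% and 2.82%.

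Clusters of the complex were wider than those of the lists as a whole. Their widths ran from 1308 to 17021 bp in replicate 1, with a median of 2323 bp, and from 1312 to 8613 bp in replicate 2, with a median of 2253 bp. The whole lists had medians of 1771.5 and 1821 bp. In the combined list the widths ran from 1007 to 31614 bp with a median of 2391 bp, against 1449 bp in the whole list. By width, the top 10.0% of each list held a larger share of the clusters of the complex: 12 of 59 (20.3%) in replicate 1, 13 of 61 (21.3%) in replicate 2 and 36 of 80 (45.0%) in the combined list were among them.

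In score, the replicate clusters stood closer to their lists. Replicate 1 scores ran from 0.38 to 2.05, replicate 2 scores from 0.31 to 2.22 and combined scores from 0.16 to 1.50. The medians were 0.58, 0.58 and 0.39, against whole-list medians of 0.57, 0.52 and 0.37. By score, the top 10.0% of each list took in 8 of 59 clusters (13.6%) in replicate 1 and 9 of 61 (14.8%) in replicate 2, shares near that background, and 20 of 80 (25.0%) in the combined list. Wide clusters had the higher scores: across the clusters of the complex, the Spearman rho of width and score was 0.80 in replicate 1, 0.75 in replicate 2 and 0.74 for combined clusters, against 0.56, 0.62 and 0.04 over the whole lists. These correlations describe clusters called on the same reads, and neighbouring clusters are not independent.

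**Figure D2:**
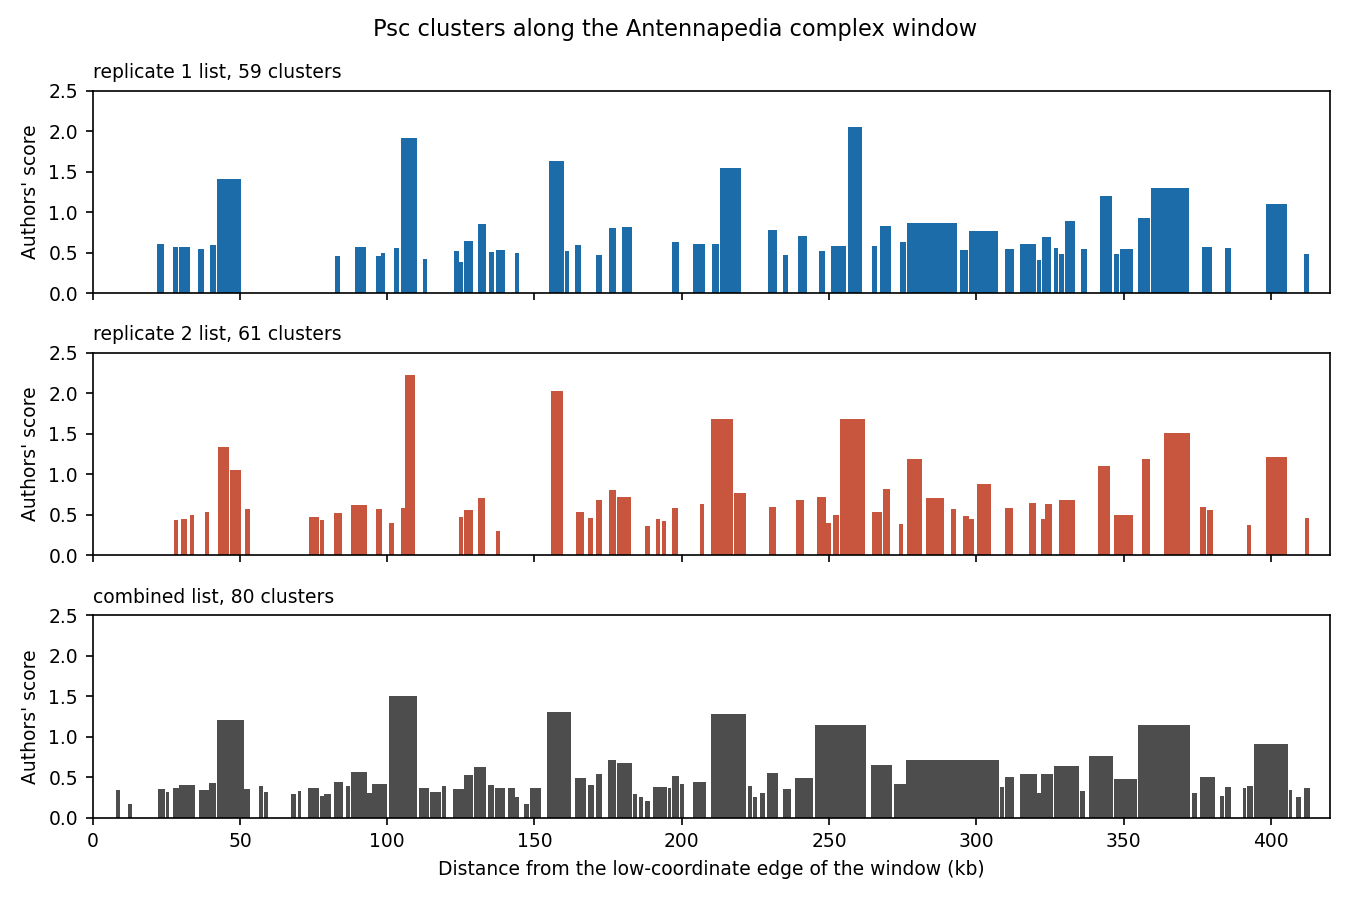
Clusters along the window in the replicate 1 (top), replicate 2 (middle) and combined (bottom) lists, each drawn from its start to its end in kb from the low-coordinate edge of the window (x axis) with the authors' score as its height (y axis, no stated unit). High clusters recur at like positions in the 3 lists, and the combined list joins neighbouring clusters of the replicates, most of all in its widest cluster of 31614 bp.

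Regions of high score in both replicates were spread along the whole complex. A score of at least 1, a bound chosen after the values were seen, was reached in both replicates by 8 of the 42 cluster pairs of the complex (pairs in which each cluster is the longest overlap of the other). Each of the 7 successive sections of 60 kb held 1 of these regions by its midpoint, except the last, which held 2. The midpoints lay 24.3 to 84.9 kb apart, with a median of 49.9 kb over 7 distances. Among the pairs of the complex 19.0% reached the bound, near the 17.8% of the pairs of the major arms. By length, the complex held 19.0 of them per Mb and the major arms 1.90.

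In order of position, the first of the 8 was the replicate 1 cluster from 2502219 to 2510369, of 8151 bp, with a score of 1.41. Its replicate 2 partner, from 2502435 to 2506305, scored 1.34 and was followed after 396 bp by another cluster, which scored 1.06. The combined list had 1 cluster there, from 2502122 to 2511267, with 1.21. Both replicates thus placed a high region about 44.4 kb into the window, and replicate 2 had it in 2 pieces.

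The second region held the highest score of the complex in replicate 2 and in the combined list. It ran from 2564648 to 2570239 in replicate 1 (score 1.92) and from 2566167 to 2569431 in replicate 2 (score 2.22), and these scores were at or above those of 99.1% and 99.4% of the clusters of their lists. The combined cluster, from 2560765 to 2570244, scored 1.50. The third region, from 2614866 to 2620140 in replicate 1, scored 1.63 there, 2.03 in replicate 2 (2615683 to 2619730) and 1.31 in the combined list (2614312 to 2622471). In both regions the replicate 2 cluster was the narrower and the higher in score.

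The fourth region was of almost equal width in the replicates, with 7137 bp in replicate 1 (2672830 to 2679966, score 1.54) and 7476 bp in replicate 2 (2669869 to 2677344, score 1.68). The fifth held the highest score of the complex in replicate 1, 2.05, in a cluster of 4870 bp from 2716355 to 2721224. Its partner in replicate 2 was wider, at 8556 bp (2713807 to 2722362), and scored 1.69. The order of the leading regions thus differed between the replicates, with the fifth region at rank 1 among the pairs by score in replicate 1 and rank 3 in replicate 2, and the second region at rank 2 and rank 1.

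The last 3 regions scored below the second, the third, the fourth and the fifth in both replicates. The cluster from 2801884 to 2806041 scored 1.19 in replicate 1 and its partner from 2801301 to 2805478 scored 1.10 in replicate 2. The region from 2819149 to 2832079 was the second widest cluster of replicate 1 (12931 bp, score 1.30), and its partner from 2823817 to 2832429 was the widest of replicate 2 (8613 bp, score 1.51). At the high-coordinate end, clusters from 2858373 to 2865478 and from 2858322 to 2865643 scored 1.10 and 1.21. Of these last regions the outermost had the closest edges, which differed by 51 bp at the start and 165 bp at the end. Over the 8 regions the SD between the 2 replicate scores ran from 0.05 to 0.28, and replicate 2 was higher in 5 and replicate 1 in 3, so scores that differ by less than this spread do not separate one region from the next.

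Across all 42 pairs of the complex, the replicate scores gave a Pearson r of 0.94 (Spearman rho 0.79), and the widths a rho of 0.65. Over the 1294 pairs of the whole lists the r was 0.91 and the rho 0.80 for scores, and the rho 0.74 for widths. These are descriptions across regions of 2 samples. Replicate 1 had the higher score in 25 pairs and replicate 2 in 17, and replicate 1 had the wider cluster in 26 and replicate 2 in 16. Edges were placed less closely than elsewhere: the starts of a pair differed by a median of 674 bp and the ends by 335 bp, against 212 and 224.5 bp over all pairs, whose clusters were narrower, with medians of 2200 and 2164.5 bp against 3231.5 and 2623 bp in the complex.

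**Figure D3:**
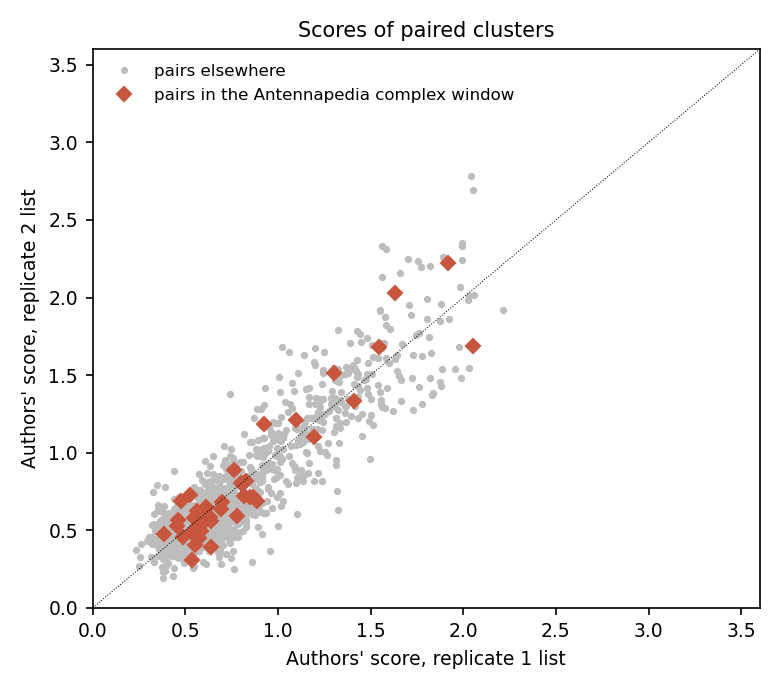
Authors' score of each cluster pair in the replicate 1 list (x axis) and the replicate 2 list (y axis), with 42 pairs of the Antennapedia complex window as diamonds, the other pairs as grey points and a dotted line of equal scores. The pairs of the complex lie within the cloud of the other pairs, most of them below a score of 1 in both lists, and 8 of them at or above 1 in both.

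The replicates shared most clusters of the complex. In replicate 1, 46 of 59 clusters (78.0%, exact Clopper-Pearson 95% interval 65.3 to 87.7) overlapped a replicate 2 cluster, against 51.4% of the whole list. Of the replicate 2 clusters, 51 of 61 did (83.6%, 71.9 to 91.8), against 58.7%. In both cases the share of the complex was the higher, and the difference was not tested. The intervals cover counting error only, and neighbouring clusters are not independent. By length, 144 kb was covered in both lists, which was 59.4% of the 242 kb covered in either, against 43.3% over the major arms. The clusters of the complex were also wider than those of the lists as a whole. Their medians were 2323 and 2253 bp against 1771.5 and 1821 bp. The lists were denser there too, covering 48.6% and 43.3% of the window against 5.40% and 4.78% of the major arms. Overlap by placement alone is likelier where the other list covers more. The part of width and of coverage in these shares was not tested, so they do not by themselves show closer agreement in the complex.

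Clusters seen in 1 replicate were narrow and low in score at the median, in the complex as over the whole lists. Over the whole lists, unshared clusters of replicate 1 had medians of 1536 bp and 0.54, against 2180 bp and 0.63 for shared ones. In replicate 2 these were 1523 bp and 0.49, against 2154 bp and 0.59. In the complex, the 13 unshared clusters of replicate 1 were 1608 bp wide and scored 0.52 at the median, with none above 0.61, against 3115.5 bp and 0.61 for the shared ones. The 10 unshared clusters of replicate 2 had 1499.5 bp and 0.45, with none above 0.57, against 2510 bp and 0.63. No region of the complex with a score of at least 1 in 1 replicate was thus without a cluster in the other. Over the whole lists, the highest unshared scores were 3.48 in replicate 1 and 3.10 in replicate 2. All 13 and all 10 unshared clusters of the complex overlapped a cluster of the combined list. Most unshared clusters of the whole lists did so too, 1181 of 1277 in replicate 1 and 941 of 1005 in replicate 2.

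The combined list closed many of the spaces between replicate clusters. Of its 80 clusters in the complex, 36 (45.0%, exact 95% interval 33.8 to 56.5) were found in both replicate lists, against 13.5% of the whole combined list. Another 9 were found in replicate 1 only and 7 in replicate 2 only. The remaining 28 (35.0%, 24.7 to 46.5) were in neither, against 63.5% of the whole list. The 36 made up 243 kb of the complex, at a median of 5120.5 bp in width and 0.54 in score. The 28 made up 43.3 kb, at a median of 1307.5 bp and with scores of 0.16 to 0.41. Over the whole lists, the narrowest cluster was 1301 bp wide in each replicate list and 1001 bp in the combined list. The part of this difference, and of the dense coverage of the complex, in these shares was not tested. In all, 82.4 kb (19.6% of the window) was covered in the combined list alone and 95.4 kb (22.7%) in none of the 3 lists.

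Replicates broke the widest combined clusters into pieces. The widest, from 2736184 to 2767797 with a combined score of 0.71, was covered to 93.6% by 3 clusters of replicate 1 and to 66.2% by 6 clusters of replicate 2. The replicate 1 pieces scored 0.53 to 0.86 and included the widest cluster of that list in the complex, from 2736572 to 2753592 (17021 bp, score 0.86), and the cluster at rank 3 by width, from 2757415 to 2767271 (9857 bp, score 0.76). The replicate 2 pieces scored 0.45 to 1.19, the highest of them at the low-coordinate end, from 2736363 to 2741409, and the widest from 2743013 to 2749092 (6080 bp, score 0.71). Outside this stretch, replicate 2 had a cluster of like width but lower score from 2806778 to 2813333 (6556 bp, score 0.49). The stretch from 2736184 to 2767797 was therefore a broad domain of moderate score in replicate 1 and a row of shorter clusters in replicate 2, and it held no pair with a score of at least 1 in both.

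The next widest combined clusters each held a high-scoring region. The cluster from 2814769 to 2832434 (17666 bp, score 1.15) was covered to 96.1% and 64.4% by 2 clusters in each of replicates 1 and 2. The cluster from 2705146 to 2722494 (17349 bp, score 1.15) was covered to 70.0% by 3 and 88.8% by 4 clusters, and that from 2669782 to 2681956 (12175 bp, score 1.29) to 76.3% and 96.0% by 2 clusters each. The cluster from 2854179 to 2865837 (11659 bp, score 0.91) met 1 cluster in each replicate, at 60.9% and 62.8%. Neither replicate was the fuller one throughout: replicate 1 covered more of the first of these 4, and replicate 2 more of the other 3.

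Coverage was uneven along the complex. In the 2 sections from 240 to 360 kb into the window, clusters covered 74.4% and 74.2% in replicate 1 and 67.3% and 53.4% in replicate 2. The 5 other sections ran from 29.1% to 46.1% in replicate 1 and from 25.3% to 44.2% in replicate 2, so the sections did not overlap in either list. The mean over the dense sections was 67.3% ± 9.9 and over the others 37.4% ± 1.3 (SD, n = 2), and the difference was 36.0 percentage points in replicate 1 and 23.9 in replicate 2. These sections were set apart after their values were seen, and the difference was not tested. The highest scores lay in sections of both kinds: the most covered section of each list, from 240 to 300 kb, held the fifth region, with 2.05 in replicate 1 and 1.69 in replicate 2, and the section from 60 to 120 kb, the least covered of replicate 1 at 29.1%, held the second region, with 1.92 and 2.22.

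In 10-kb steps, 36 of 42 bins were touched by clusters of both replicates, 3 by 1 replicate and 3 by neither. In 15 of these bins both lists covered over 50%. In 5-kb steps, 61 of 84 bins were touched by both replicates, 13 by 1 and 10 by neither. Like counts outside the complex are not given here, so these do not set the complex apart. The bin from 210 to 220 kb was covered to 92.9% and 97.2%, and the bin from 250 to 260 kb to 87.3% and 89.5%. Between the replicates, coverage of the bins gave a Pearson r of 0.77 (Spearman rho 0.74) over 42 neighbouring bins, given as a description. Replicate 1 was the higher in 23 bins and replicate 2 in 16, with a median difference of 16.1 percentage points and a largest one of 47.4, in the bin from 70 to 80 kb, which only replicate 2 covered of the replicate lists.

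**Figure D4:**
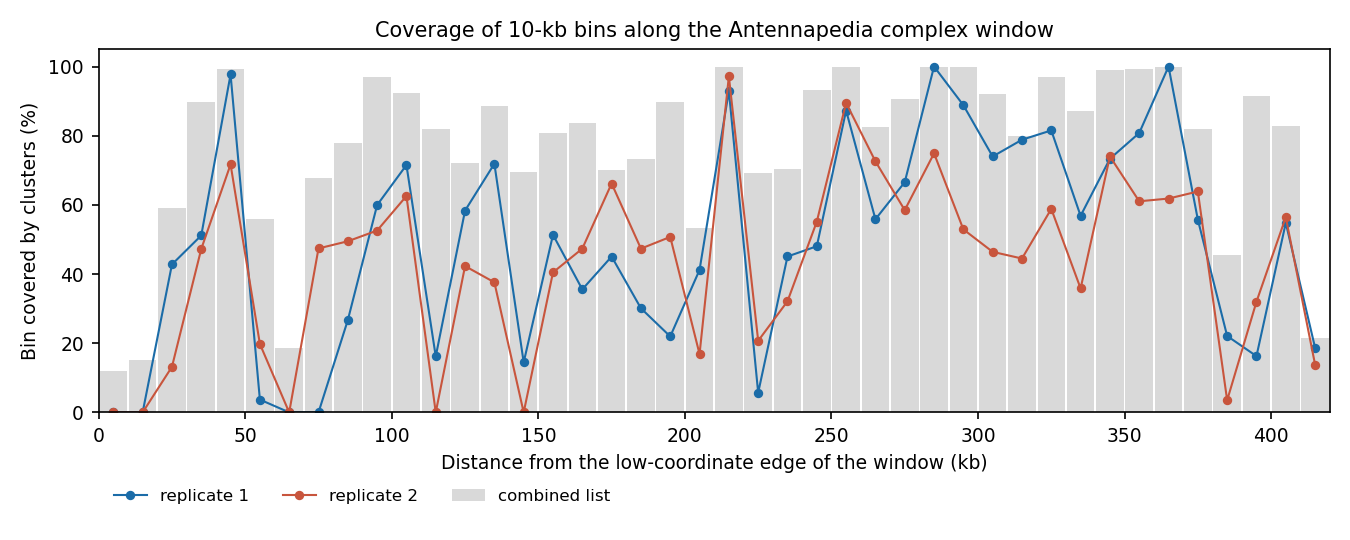
Percent of each 10-kb bin covered by clusters (y axis) along the window in kb from its low-coordinate edge (x axis), with replicate 1 and replicate 2 as lines with points and the combined list as grey bars. Both replicate lines stay mostly above 40% between 240 and 360 kb and drop to 0 in both in 3 bins near the low-coordinate end.

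Gaps between neighbouring clusters were short. The median gap was 2055 bp in replicate 1, 2341.5 bp in replicate 2 and 640 bp in the combined list, against 11914, 12625 and 5339 bp over the major arms. Of 58 gaps in replicate 1, 21 were under 1 kb and 4 over 10 kb, and of 60 in replicate 2, 15 and 4. The combined list had 79 gaps, 53 of them under 1 kb and none over 10 kb. It also held narrower clusters than either replicate list, and the part of this in its shorter gaps was not tested. A few long gaps held much of the length between clusters: the 5 longest took up 41.2% of the summed gaps in replicate 1, 35.2% in replicate 2 and 32.9% among combined clusters.

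**Figure D5:**
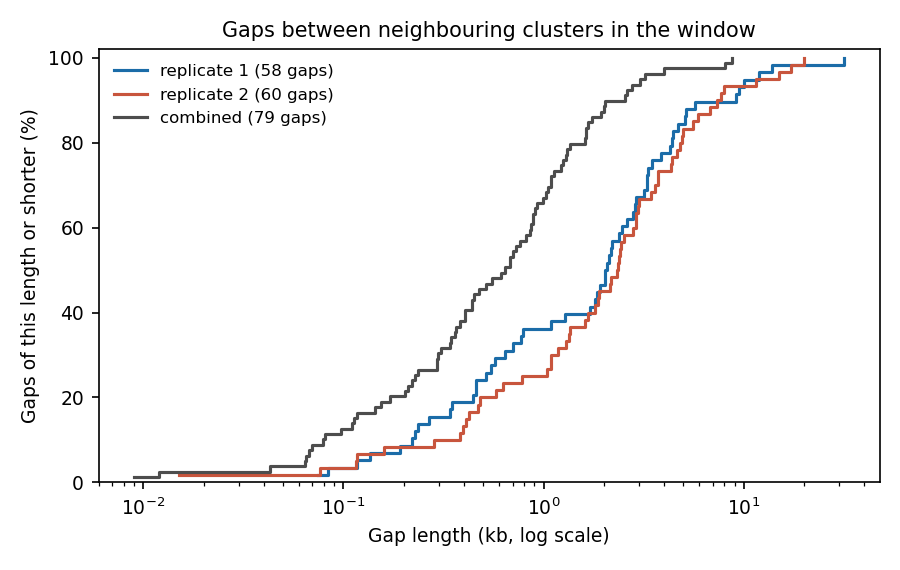
Cumulative percent of the gaps between neighbouring clusters in the window (y axis) up to a given length in kb (x axis, log scale), for the replicate 1, replicate 2 and combined lists. The curves of the replicates run close to each other, with medians of 2055 and 2341.5 bp, and the combined list lies to the left, with a median of 640 bp.

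The longest gap was at a like place in both replicates. In replicate 1 it ran for 31.8 kb, from 2510370 to 2542156, directly beyond the first high-scoring region. In replicate 2 it was 20.0 kb long, from 2513333 to 2533328, and lay wholly inside that of replicate 1. The difference came mostly from replicate 2 clusters at 2511812 to 2513332 (0.57), 2533329 to 2536730 (0.48) and 2537113 to 2538451 (0.44), which replicate 1 lacked. The combined list had 6 clusters in the gap of replicate 2, covering 25.5% of it, and its own second longest gap, of 8.08 kb from 2519361 to 2527442, lay there too.

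The other long gaps overlapped in part. In replicate 1 they followed in length at 2643010 to 2656843 (13.8 kb), 2846508 to 2858372 (11.9 kb), 2604784 to 2614865 (10.1 kb) and 2679967 to 2689430 (9.46 kb). In replicate 2 they were at 2598452 to 2615682 (17.2 kb), 2569432 to 2584445 (15.0 kb), 2840351 to 2851869 (11.5 kb) and 2681839 to 2689768 (7.93 kb). The second longest of replicate 1 was not a gap in replicate 2, where 4 clusters covered 36.6% of it. Empty in both replicates were 10.1 kb just before the third high-scoring region, 9.13 kb from 2573543 to 2582669 and 7.59 kb from 2681839 to 2689430. The combined list covered 61.4%, 60.6% and 59.3% of these stretches.

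In the combined list alone, the longest gap was 8.77 kb, from 2473403 to 2482169, close to the low-coordinate end. After the gap of 8.08 kb given above came gaps of 3.98 kb (2846532 to 2850511), 3.21 kb (2513374 to 2516583) and 3.02 kb (2660797 to 2663818). The longest and the last of these were nearly empty in the replicates as well, where replicate 1 covered 2.08% and 2.18% and replicate 2 none, and the others were empty in both.

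The high-coordinate end of the covered stretch was sharper than the low-coordinate end. The last cluster ended at 2873022 for replicate 1, 2872958 for replicate 2 and 2873204 for the combined list, a range of 246 bp over the 3 lists. The first cluster began at 2481988, 2487634 and 2467922, a range of 19712 bp. The combined list set this range, and its first cluster overlapped no cluster of either replicate. Between the replicates alone, the first starts differed by 5646 bp and the last ends by 64 bp. The end clusters scored 0.49, 0.46 and 0.37 at the high end and 0.61, 0.44 and 0.35 at the low end, against medians of 0.58, 0.58 and 0.39 over the complex. Beyond them lay empty stretches: 78.7 kb, 128 kb and 27.8 kb to the nearest cluster before the complex, and 26.6 kb, 19.0 kb and 15.0 kb to the nearest after it, in replicate 1, replicate 2 and the combined list.

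The complex was less filled than the 334-kb domain of 3R from 12483932 to 12817919, the next longest of the combined list when clusters within 10 kb are joined. The bithorax complex, the other Hox complex of the fly, is known to lie in that part of the arm, though it was not located from the files. Clusters covered 73.1% and 67.1% of that domain in replicates 1 and 2, a mean of 70.1% ± 4.2, and 46.0% ± 3.8 of the Antennapedia complex window (SD, n = 2). The difference was 24.4 percentage points in replicate 1 and 23.8 in replicate 2, larger than the spread between the replicates. Measured in the same way as that domain, over the 405 kb that its own combined clusters span, the Antennapedia complex was covered to 50.4% and 44.9%, still lower in both replicates. Both stretches were measured in the same 2 samples, and the difference was not tested.

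Clusters were also wider, closer and higher in score in the 334-kb domain. Their median width was 3743 and 3425 bp in replicates 1 and 2, against 2323 and 2253 bp in the Antennapedia complex, and the median gap 868 and 1322.5 bp against 2055 and 2341.5 bp. Median scores were 0.68 and 0.75 there and 0.58 in both lists here. A score of at least 1 was reached by 16 of 47 and 15 of 45 clusters there (34.0% and 33.3%) and by 8 of 59 and 11 of 61 here (13.6% and 18.0%). The whole-list share at this bound is not given here. As a guide, a score of 1.10 was at or above 90.5% of the replicate 1 list. A score of 1.06 was at or above 88.9% of the replicate 2 list. The highest scores were 1.70 and 2.25 there and 2.05 and 2.22 in the Antennapedia complex, which had the higher one in replicate 1 and the lower one in replicate 2.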

How the data were processed

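Psc ChIP-seq regions of 2 ChIP samples were used, as 1 list for each sample and 1 combined list. Neither input sample has a list. Reads were processed with Bowtie 0.12.7, per the submitters' processing notes, and coordinates are of FlyBase release 5, per the file headers. How clusters were called and how the replicates were joined is not given in the sources used here. Cluster scores were deposited by the authors with no unit stated.

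A minimum overlap of 1 bp counted as shared. Positions were compared with numpy 2.4.6, scipy 1.17.1 and pandas 2.3.3 in Python 3.11.15. Overlap counts were tested on simulated data and against bedtools 2.31.1. Figures were drawn with matplotlib 3.10.9. Shares carry exact 95% intervals. No test between groups was run. The named regions are the 6 widest and 6 highest-scoring clusters, the 5 longest gaps and the end clusters of each list; others were named after their values were seen, among them all further paired regions with a score of at least 1. The window, the members and all lists were chosen with earlier results of these data known. Genes of the Polycomb pathway, motifs and sequences were not used here, since no genome of release 5 was at hand.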

Additional observations from a re-analysis of the deposited data

How the results depend on the processing

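Of 42 alternatives to 12 results, 29 counted as the same and 13 as moved. The bounds were the spread between replicates, the counting interval or, for the number of clusters, a factor of 1.5. The length shared by the replicates had no such bound, and its alternatives, at 55.8% and 59.7% against 59.4%, were counted as moved. Some of the 29 could not have moved. With n = 2, a single replicate always lies within 1 SD of the mean. Keeping only clusters wholly inside the window changed nothing, since each cluster lay inside. The tally is therefore no measure of robustness. Leaving out each replicate in turn gave a coverage of 43.3% to 48.6%, 59 to 61 clusters, a median width of 2253 to 2323 bp, a median score of 0.58, a longest gap of 19996 to 31787 bp, rank 2 among windows and a difference of -24.4 to -23.8 percentage points from the 334-kb domain. With only clusters at or above the median score of their list, fewer clusters by construction, coverage was 34.3%, the mean number of clusters 35.5, the median width 3225 bp, the median score 0.73, the longest gap 41498 bp, the length shared by the replicates 55.8% and the difference from the 334-kb domain -26.9 points. Merging clusters within 1000 bp cut the mean number of clusters from 60 to 42 and gave a median width of 3203 bp and a shared length of 59.7%. A reciprocal overlap of 50%, a stricter demand by construction, left 55.9% and 54.1% of replicate 1 and 2 clusters shared. Of the combined clusters, 32.5% were covered to 50% by both replicates. Whole-list shares under these stricter rules are not given here, so these values do not set the complex apart. With windows laid from another start the complex had rank 1. The cause was not tested. Depth limits all scores, since read numbers are unknown. No paired analysis was possible because neither input sample has a list.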
